A study of Mus musculus with 2 samples.

Results

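The genes described here are Ahr, which encodes the aryl hydrocarbon receptor, its DNA-binding partner gene Arnt, and the Ahr target genes Ahrr, Cyp1a1, Cyp1b1, Tiparp and Asb2. They were chosen by symbol, as the rows whose Entrez identifier belongs to these 7 names, and all 7 were present among the 13056 genes with an Entrez identifier. The choice was made with results of the same data known. Their levels are therefore given as a description of these libraries and carry no test.

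CD4+ T cells came from C57BL/6 mice, wild type and 6 to 8 weeks old, and were kept for 48 h in conditions that polarise them to T helper 17 (Th17) cells. The control culture received wild-type antigen presenting cells (WT APCs). The other culture received antigen presenting cells transgenic for OX40L (OX40L-TG APCs), the ligand of the costimulatory receptor OX40. The T cells of both cultures were wild type, and 1 library was made from each culture. The promoter that drives the transgene, the kind of APC and any removal of APCs before RNA extraction are not stated in the labels.

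The aryl hydrocarbon receptor is a ligand-activated transcription factor of the bHLH-PAS family. Without ligand it is held in the cytosol by HSP90 and its co-chaperones. With ligand, such as a tryptophan photoproduct, a dietary indole or dioxin, it enters the nucleus, pairs with ARNT and binds DNA elements with the core GCGTG. The pair switches on enzymes that break the ligand down, such as CYP1A1 and CYP1B1, and repressors of the receptor itself, namely AHRR and TIPARP. Among CD4+ T cells the receptor is known for high expression in Th17 cells and for its role in IL-22 production.

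The sequences upstream of the start site are shown for the 3 genes whose levels differed most between the libraries, Ahrr, Cyp1a1 and Cyp1b1, and for Asb2, which went the other way. Each line is the 250 bases before an annotated RefSeq start on build GRCm38.p6, 5′ to 3′ on the gene's strand. Capitals mark the core GCGTG, or CACGC where the core lies on the opposite strand.
Ahrr: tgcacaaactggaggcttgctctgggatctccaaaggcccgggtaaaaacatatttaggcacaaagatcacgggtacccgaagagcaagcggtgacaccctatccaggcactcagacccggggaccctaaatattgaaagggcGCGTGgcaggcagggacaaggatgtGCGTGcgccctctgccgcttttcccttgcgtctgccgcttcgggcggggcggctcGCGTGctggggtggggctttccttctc
Cyp1a1: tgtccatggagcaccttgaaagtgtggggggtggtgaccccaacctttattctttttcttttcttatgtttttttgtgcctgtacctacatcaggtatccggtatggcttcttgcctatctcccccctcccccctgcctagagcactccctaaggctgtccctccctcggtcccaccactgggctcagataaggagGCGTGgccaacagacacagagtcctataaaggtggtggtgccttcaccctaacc
Cyp1b1: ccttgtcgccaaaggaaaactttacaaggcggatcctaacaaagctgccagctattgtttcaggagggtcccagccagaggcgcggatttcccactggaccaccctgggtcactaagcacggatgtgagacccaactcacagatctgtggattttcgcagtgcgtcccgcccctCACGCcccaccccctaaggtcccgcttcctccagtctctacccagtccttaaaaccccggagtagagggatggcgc
Asb2: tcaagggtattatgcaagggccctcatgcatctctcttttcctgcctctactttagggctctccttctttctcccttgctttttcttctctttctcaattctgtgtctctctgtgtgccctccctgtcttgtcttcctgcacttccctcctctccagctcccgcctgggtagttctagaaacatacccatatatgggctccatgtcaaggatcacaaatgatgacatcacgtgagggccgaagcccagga
The windows lie at chr13:74292332-74292581 on the minus strand for Ahrr, chr9:57697363-57697612 on the plus strand for Cyp1a1, chr17:79715062-79715311 on the minus strand for Cyp1b1 and chr12:103356002-103356251 on the minus strand for Asb2. Ahrr held 3 cores, which began 107, 82 and 27 bases before the start. Cyp1a1 held 1 core at 54 bases, and Cyp1b1 held 1 on the opposite strand at 76 bases. The Cyp1a1 window lies inside the gene span given below, before an annotated start within it. The bases before the outer start of that span, chr9:57687928, were not searched. The Asb2 window held none, and neither did a further annotated Asb2 window.

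RefSeq windows were at hand for 6 of the 7 genes, and 5 of those 6 held at least 1 core on either strand. Tiparp had 1 on the opposite strand 170 bases before its start, and Arnt had 1 at 29 bases. The core occurred in 28.2% of all 32851 promoter windows of this length and in 45.9% of the 10883 windows of genes that passed the filter on low values. The longer element TNGCGTG, which contains the core, occurred in Ahrr alone among these genes, against 4.10% of all windows and 6.87% of those of genes passing the filter. GC content ran from 50.0% in the Asb2 window shown to 75.2% in Tiparp. The median was 52.4% over all windows and 60% over those of genes passing the filter. A match of letters is a description of the sequence, and binding was not measured.

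Levels are in FPKM, fragments per kilobase of transcript normalised to sequencing depth, so they can be compared between genes. The 3 genes that serve as the classical readout and feedback of the receptor (Cyp1a1, Cyp1b1 and Ahrr) stood at 0.273 to 0.323 times their control level with OX40L-TG APCs. Ahr and Tiparp were lower by much less, Arnt was slightly higher and Asb2 was higher. An estimated 23600000 fragments lay behind the WT-APC library and 27100000 behind the OX40L-TG-APC library. Each ratio below is OX40L-TG-APC over WT-APC, with a 95% exact Clopper-Pearson interval from the estimated fragments. Such intervals cover counting error only, and PCR copies are not independent molecules. Variation between cultures or animals could not be measured with 1 library per condition.

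**Figure D1:**
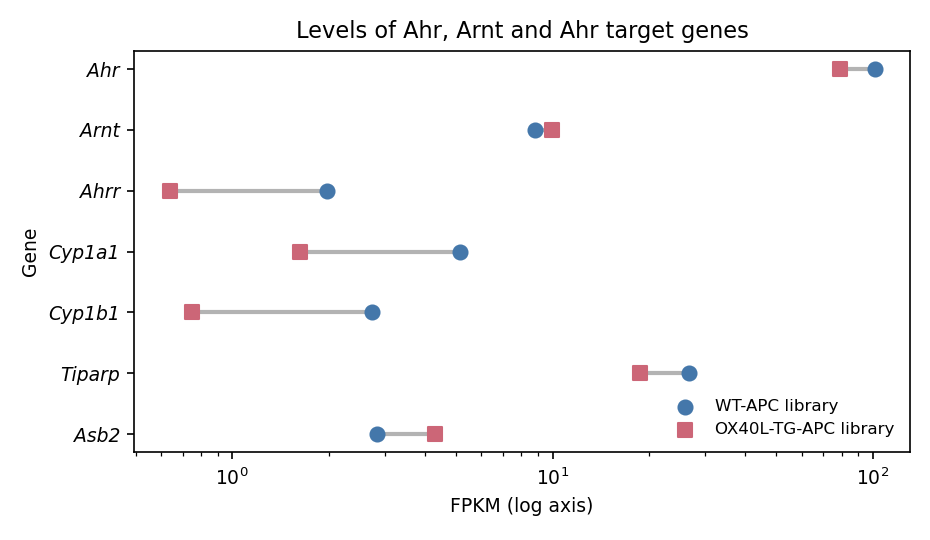
FPKM of the 7 genes (log axis) in the WT-APC library (circles) and the OX40L-TG-APC library (squares), 1 library each. The circle lies right of the square for Ahr, Ahrr, Cyp1a1, Cyp1b1 and Tiparp, and left of it for Arnt and Asb2, with wide gaps for Cyp1b1 (2.74 against 0.747 FPKM), Cyp1a1 and Ahrr.

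Ahr (Entrez 11622, chr12:35497979-35534989) encodes the receptor. Its level was 101 FPKM with WT APCs and 79.2 FPKM with OX40L-TG APCs. It was abundant in both libraries, above 95.5% of the genes with an Entrez identifier in the first and above 92.6% in the second. The ratio was 0.783 (0.764 to 0.802), from about 13260 and 11893 fragments. The authors print a merged locus for Ahr that also covers Snx13, a sorting nexin gene with its own row, which stood at 7.71 and 7.10 FPKM.

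Arnt (Entrez 11863, chr3:95434367-95497240) encodes the protein with which the receptor binds DNA, and also the partner of the hypoxia factors. It stood at 8.78 FPKM with WT APCs and 9.95 FPKM with OX40L-TG APCs, a ratio of 1.13 (1.03 to 1.249). The Ahr level was thus 11.5 times that of Arnt in the WT-APC library and 7.96 times in the other. The log2 change of Arnt, taken as log2 of the ratio of FPKM + 1, was 0.16, close to the median of 0.11 over all genes passing the filter. It came to 0.00 when the summed FPKM of the libraries was made equal.

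Cyp1a1 (Entrez 13076, chr9:57687928-57703824) encodes the cytochrome P450 enzyme that clears many ligands of the receptor, and its transcript is the standard readout of receptor activity. It stood at 5.14 FPKM with WT APCs and 1.63 FPKM with OX40L-TG APCs. The difference was 3.15-fold (2.53 to 3.91), on about 323 and 118 fragments. Its neighbour and close relative Cyp1a2, an enzyme mainly of liver, was listed at 0 in both libraries.

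Cyp1b1 (Entrez 13078, chr17:79706940-79715061), encodes a cytochrome P450 expressed mostly outside the liver. It stood at 2.74 FPKM with WT APCs and 0.747 FPKM with OX40L-TG APCs, 3.66-fold lower (2.88 to 4.74). The level of Cyp1a1 was 1.88 times that of Cyp1b1 in the WT-APC library and 2.18 times in the OX40L-TG-APC library.

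Ahrr (Entrez 11624, chr13:74211118-74292331) encodes the receptor's repressor, which competes with the receptor for ARNT. It stood low in both libraries, at 1.98 FPKM with WT APCs and 0.638 FPKM with OX40L-TG APCs. The difference was 3.10-fold (2.29 to 4.20), from about 167 and 62 fragments. The Ahr level was 51.2 times that of Ahrr with WT APCs and 124 times with OX40L-TG APCs. The intervals of Ahrr, Cyp1a1 and Cyp1b1 overlapped one another, so their folds could not be ranked at this depth.

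Tiparp (Entrez 99929, chr3:65528447-65555518) encodes an ADP-ribosyltransferase, also called PARP7, that modifies the receptor and dampens it. It was far more abundant than the other targets, at 26.7 FPKM with WT APCs and 18.8 FPKM with OX40L-TG APCs. The ratio was 0.705 (0.665 to 0.746), and this interval lay below that of Ahr and above those of Cyp1a1, Cyp1b1 and Ahrr. The noncoding gene 4931440P22Rik, which overlaps the Tiparp start, stood at 0.592 and 0.332 FPKM. The strand setting of the counting is not given in the sources used, so reads in the overlap cannot be told apart.

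Asb2 (Entrez 65256, chr12:103321142-103356001) encodes the substrate-binding subunit of a Cullin 5 ubiquitin ligase that marks filamins for degradation. It was the target that stood higher with OX40L-TG APCs, at 4.29 FPKM against 2.82 FPKM with WT APCs. The ratio was 1.52 (1.26 to 1.84), from about 312 and 179 fragments. The noncoding gene Gm15523 lies inside the Asb2 locus.

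**Figure D2:**
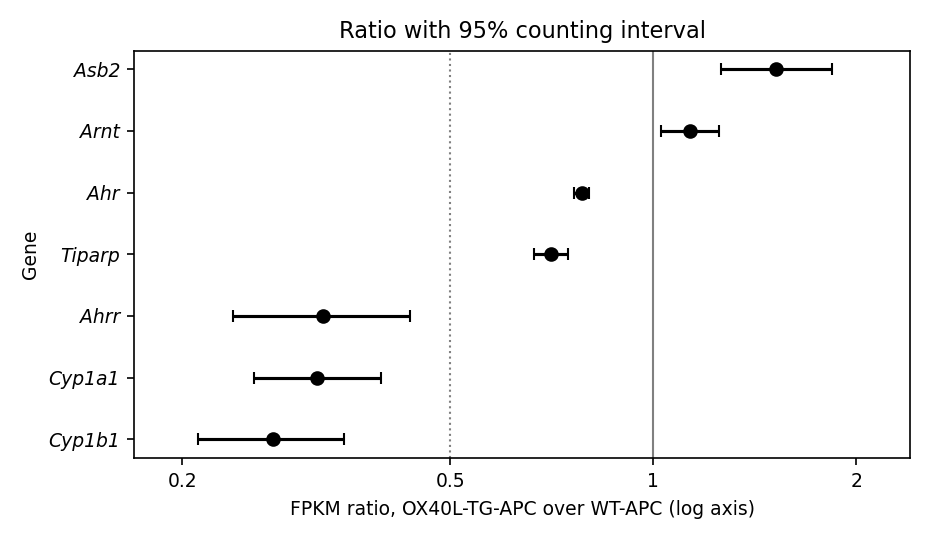
Ratio of FPKM, OX40L-TG-APC over WT-APC (log axis), for the 7 genes, as points with 95% exact counting intervals as bars, where the solid line marks 1 and the dotted line 0.5. At the deposited scaling, Cyp1b1, Cyp1a1 and Ahrr lie wholly below 0.5, Tiparp and Ahr lie between 0.5 and 1, and the intervals of Arnt and Asb2 lie above 1.

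From high to low, the WT-APC library held Ahr, Tiparp, Arnt, Cyp1a1, Asb2, Cyp1b1 and Ahrr. In the OX40L-TG-APC library Asb2 stood above Cyp1a1, and the rest of the order was the same. By exact Poisson counting intervals, Asb2 (2.43 to 3.27 FPKM) and Cyp1b1 (2.42 to 3.08 FPKM) did not differ in the WT-APC library beyond counting error. The same held for Cyp1b1 (0.598 to 0.923 FPKM) and Ahrr (0.489 to 0.818 FPKM) in the OX40L-TG-APC library. Every other pair of neighbours in these orders had intervals that did not overlap.

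On the log2(FPKM + 1) scale, 2 of the 7 genes were at least 2-fold lower and none was at least 2-fold higher. They were Cyp1a1 at -1.22 and Cyp1b1 at -1.10, while Ahrr, at -0.86, fell short because the pseudocount of 1 FPKM weighs on low values. Of the 10645 genes that reached 1 FPKM in a library, 1.32% were called lower by this rule and 2.26% higher. By the plain ratio of FPKM, 3 of the 7 were at 0.5 or less, against 2.56% of all these genes, and none was at 2 or more, against 4.08%. All 7 passed the filter, but Cyp1b1 and Ahrr did so through the WT-APC library alone. The genes were listed with this comparison known, so the counts are not evidence on the set. The median log2 change of the 7 was -0.48, with 5 below the median of all genes and 2 above it. The other changes were -0.35 for Ahr, -0.48 for Tiparp and 0.47 for Asb2.

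**Figure D3:**
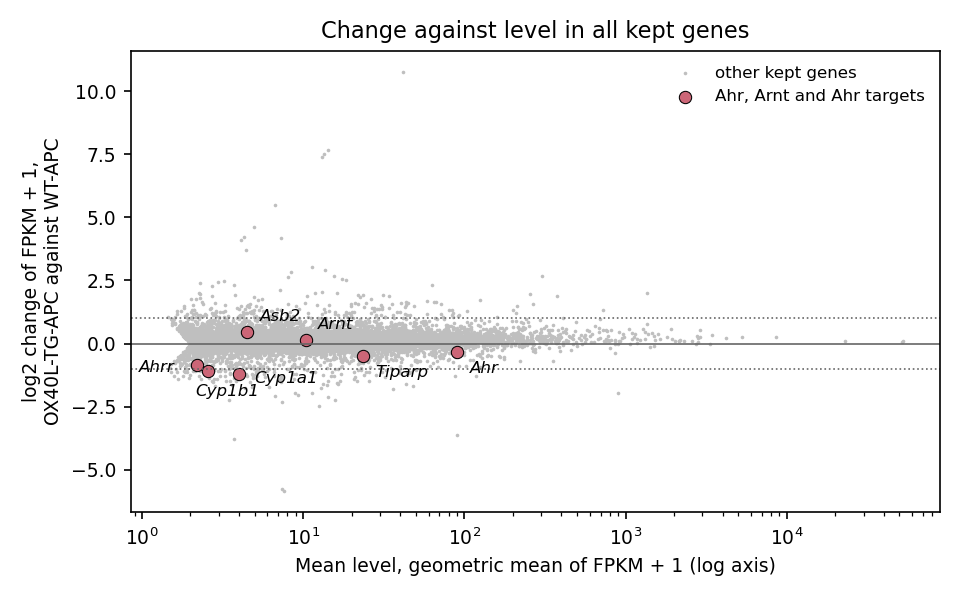
Log2 change of FPKM + 1, OX40L-TG-APC against WT-APC, against the mean level (log axis) for all genes that reached 1 FPKM in a library (grey) and the 7 genes (red), with dotted lines at a 2-fold difference. Cyp1a1 at -1.22 and Cyp1b1 at -1.10 lie beyond the lower line, and Ahrr at -0.86 lies just inside it.

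The authors' deposited table of differing genes lists 3 of the 7. Its log2 ratios of plain FPKM are -1.84 for Cyp1b1, -1.62 for Cyp1a1 and -1.60 for Ahrr in the authors' deposited table. Ahr, Arnt, Tiparp and Asb2 are not among its 398 entries, whose absolute log2 ratios all reach 1.

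Summed markers of T cells were near equal between the libraries, and most markers of other cell types that passed the filter were lower with OX40L-TG APCs. Summed over 8 T cell genes (Cd3d, Cd3e, Cd3g, Cd247, Cd4, Cd28, Lck and Zap70), the level was 1828 FPKM with WT APCs and 1833 FPKM with OX40L-TG APCs. The members differed, with Cd28 at 217 and 142 FPKM (ratio 0.653, 0.640 to 0.666) and Cd4 at 201 and 246 FPKM (ratio 1.22). Summed B cell markers stood at 48.0 and 20.5 FPKM over 8 genes, with all 6 that passed the filter lower. Macrophage markers summed to 10.8 and 4.81 FPKM over 7 genes, of which Cd68 went the other way at 2.25 and 2.44 FPKM. Dendritic cell markers summed to 4.79 and 2.18 FPKM over 7 genes, of which only Flt3 reached 1 FPKM. Siglech and Clec9a were listed at 0 in the OX40L-TG-APC library and Cd209a in the WT-APC library, and Zbtb46 stood at 0.788 and 0.934 FPKM. Neutrophil markers summed to 4.90 and 2.53 FPKM over 4 genes. A list of stromal, epithelial and endothelial markers summed to 23.4 and 8.00 FPKM over 4, nearly all from Pecam1. Within that list Epcam (0.666 and 0.437 FPKM), Kdr (0.0575 and 0.0125 FPKM) and Cdh5 (0.00995 and 0 FPKM) stood under 1 FPKM. The cell type behind the Pecam1 value was therefore not settled. None of 4 natural killer cell markers reached 1 FPKM (summed 0.307 and 0.219 FPKM), and Cd8a and Cd8b1 of CD8 T cells summed to 7.02 and 6.33 FPKM. The ratios of the 13 B cell, dendritic, macrophage, neutrophil and stromal-list markers that passed the filter ran from 0.221 to 1.09, with a median of 0.338. Of these 13 markers, 10 were at 0.5 or less, against 2.56% of all genes passing the filter. Pecam1 is the only gene among them from the stromal list. Tyrobp and S100a8 passed the filter through the WT-APC library alone, which favours low ratios. The ratios of Cyp1a1, Cyp1b1 and Ahrr, 0.318, 0.273 and 0.323, lay within the range of these markers. Those of Tiparp (0.705) and Ahr (0.783) lay within it too. The range is wide, with Cd68 at its upper end, so a place within it does not set a gene apart. In RNA from a mixed culture, fewer cells of a type and less RNA per cell cannot be told apart. The part of carried-over APC RNA in the values of the Ahr genes was not tested.

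The proteins that hold the receptor in the cytosol were encoded at slightly higher levels with OX40L-TG APCs, the opposite side from Ahr. The 4 genes of that list that passed the filter had a median of 0.34, and each exceeded the median over all genes. None reached 2-fold on the log2(FPKM + 1) scale, where 1.32% of all genes were called lower and 2.26% higher. Hsp90ab1, a cytosolic HSP90 gene, stood at 1260 FPKM with WT APCs and 1708 FPKM with OX40L-TG APCs, the order used from here on, and the ratio was 1.36 (1.34 to 1.37). Hsp90aa1, its relative, stood at 78.2 and 101 FPKM. Cdc37, a co-chaperone gene, had the smallest change at 0.17, which came to -0.0023 with equal summed FPKM.

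Of the other bHLH-PAS factors, 6 genes passed the filter, with a median of -0.07. None of them reached 2-fold on the log2(FPKM + 1) scale, where 1.32% of all genes were called lower and 2.26% higher. By plain ratio both Hif3a and Npas2 were over 2, where 4.08% of all genes were at 2 or more. Hif1a, the hypoxia factor gene whose protein also pairs with ARNT, was the most abundant at 406 and 368 FPKM, with a ratio of 0.906 (0.894 to 0.918). Npas2, a clock gene, stood at 1.31 and 3.04 FPKM, with a ratio of 2.31 (1.89 to 2.86) and a log2 change of 0.80. Hif3a stood at 0.506 and 1.53 FPKM, with a ratio of 3.03 (2.22 to 4.24) and a log2 change of 0.75. It passed the filter through the OX40L-TG-APC library alone. None of 14 coactivator and corepressor genes reached 2-fold. Their median was -0.04, and the largest changes were those of Rb1 (19.6 and 26.1 FPKM) and Ddb1 (142.7 and 181.9 FPKM).

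Further xenobiotic genes known as targets of the receptor, mainly from liver, were mostly low in both libraries. Of 14 listed, 10 were in the table and 5 passed the filter, with a median of 0.03. None of the 5 reached 2-fold on the log2(FPKM + 1) scale, where 1.32% of all genes were called lower and 2.26% higher. Ugt1a6a, a glucuronosyltransferase gene, stood at 1.59 and 0.769 FPKM, with a ratio of 0.484 (0.335 to 0.701) and a log2 change of -0.55. It passed the filter through the WT-APC library alone, and Slc46a3 (0.774 and 1.03 FPKM) through the OX40L-TG-APC library alone. The Ugt1a genes share exons, so the Ugt1a6a value is uncertain. Gstm1, a glutathione transferase gene, stood at 3.03 and 4.35 FPKM, with a ratio of 1.44 (1.11 to 1.89). Nqo1, a quinone reductase gene shared with the NRF2 pathway, was under 1 FPKM in both libraries, and the NRF2 gene Nfe2l2 stood at 29.8 and 28.8 FPKM.

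Genes that make or carry tryptophan-derived ligands differed in both directions. Of 10 that passed the filter, 1 was at least 2-fold lower on the log2(FPKM + 1) scale, against 1.32% of all genes, and none was at least 2-fold higher, against 2.26%, and the median was 0.05. By plain ratios both Ido1 and Kmo were under 0.5 and Kynu was over 2. Ido1, the enzyme gene that opens the kynurenine pathway and is known from dendritic cells and macrophages, stood at 7.73 and 3.29 FPKM, with a ratio of 0.426 (0.345 to 0.520). Its log2 change of -1.02 was -0.62 with a pseudocount of 5 FPKM. Kmo, the gene of kynurenine monooxygenase, stood at 2.39 and 0.753 FPKM, with a ratio of 0.315 (0.228 to 0.433) and a log2 change of -0.95. It passed the filter through the WT-APC library alone. Kynu, the gene of kynureninase further down the pathway, stood at 1.33 and 3.59 FPKM, with a ratio of 2.70 (2.10 to 3.47) and a log2 change of 0.98. Dendritic cell and macrophage markers were also lower there, with the sums given above, and their part in the Ido1 and Kmo values was not tested.

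T cell genes reported to depend on the receptor spread widely, and all 15 passed the filter. On the log2(FPKM + 1) scale, 7 were at least 2-fold lower, against 1.32% of all genes, and 1 was at least 2-fold higher, against 2.26%, with a median of -0.98. This list too was chosen with earlier results of these data known, so its counts are not evidence on the set. The 5 largest changes were -3.62 for Il17a, -1.97 for Il17f, -1.80 for Ikzf3, -1.30 for Maf and -1.13 for Il10. The 1 higher gene, named after its value was seen, was Il22, the cytokine gene most tied to the receptor, at 2.46 and 6.16 FPKM. Its ratio of 2.50 (1.89 to 3.41) lay on the opposite side of 1 from Cyp1a1, Cyp1b1 and Ahrr. After scaling by the median ratio, its log2 change was 0.94, and with a pseudocount of 5 FPKM it was 0.58, both short of 2-fold.

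No relative or partner of Tiparp and Asb2 reached 2-fold on the log2(FPKM + 1) scale. By that rule 1.32% of all genes were called lower and 2.26% higher, so finding none in lists this small is near those shares. Over 14 PARP family genes the median was 0.10, and the largest change was that of Parp16 at 0.52 (2.42 and 3.89 FPKM), beside -0.48 for Tiparp. The 6 Asb family genes had a median of 0.03 and the largest change in Asb3 at 0.38 (7.83 and 10.5 FPKM), beside 0.47 for Asb2. The Cullin 5 ligase genes and filamins had a median of 0.22 over 6 genes. That median was 0.094 after scaling by the median ratio and 0.037 after scaling by the summed FPKM. The ligase subunit genes Eloc, Rnf7 and Elob were at 0.39, 0.33 and 0.32. Cul5, the Cullin 5 gene itself, went the other way at -0.09 (14.4 and 13.5 FPKM). Flna, the gene of the Asb2 substrate filamin A, stood at 178 and 192 FPKM, and its log2 change of 0.12 was -0.0059 after scaling by the median ratio and -0.064 after scaling by the summed FPKM.

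**Figure D4:**
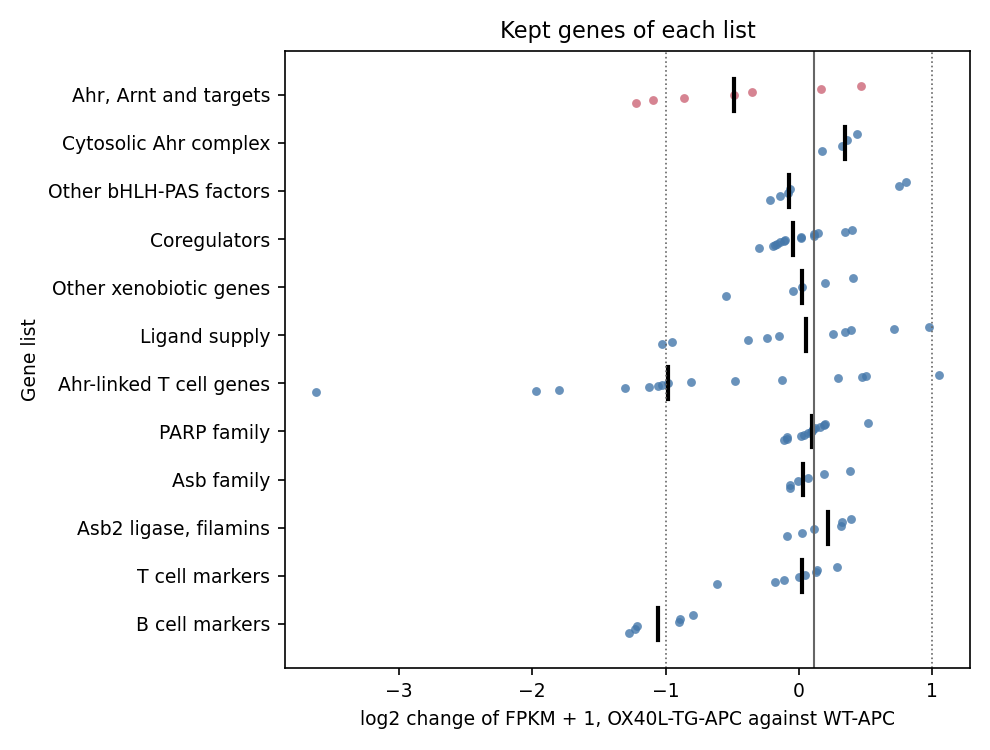
Log2 change of FPKM + 1, OX40L-TG-APC against WT-APC, of each gene passing the filter (points) in 12 lists, with list medians as thick bars, the median of all genes as a solid line and 2-fold differences as dotted lines. The Ahr genes (red) run from -1.22 to 0.47, the cytosolic complex lies right of the solid line with a median of 0.34, and all 6 B cell markers lie left of it.

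By nearness of log2 change among protein-coding genes of similar WT-APC level, the genes most like Ahr were Ptpn7, Dock2 and Smox, chosen from 345. For Tiparp they were Egr2, Ube2f and Icam2, from 1286, and for Asb2 Iigp1, Amacr and Ccdc18, from 585. The likeness rests on 2 libraries. For each of the 9 the log2 change was within 0.01 of that of the gene it was matched to.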

How the data were processed

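RNA was measured in 2 libraries, 1 per condition, each from cultured CD4+ T cells with 1 µg of total RNA in an Illumina TruSeq preparation, per the labels' protocols. The authors deposited FPKM values for 24440 features. Per the submitters' processing notes, TopHat2 and Cuffdiff were used with build mm9. Their versions, the gene models and the strand setting are not given in the sources used. The printed loci overlapped the GRCm38 position of the same gene for 99.7% of 13030 identifiers in the RefSeq table, so GRCm38 coordinates are given. A second deposited table gives the log2 ratio and a p-value for 398 genes, per the file headers. Its p-values compare the libraries and are not printed.

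Symbols came from RefSeq by Entrez identifier. Change was log2((FPKM + 1)/(FPKM + 1)), the OX40L-TG-APC library over the WT-APC library, which understates the change of low genes. Genes under 1 FPKM in both libraries were left out, and a 2-fold difference was called. With 1 library per condition no test was made. Depth was estimated from the steps that single fragments make in FPKM values under 0.3 of 416 genes with 1 RefSeq-matched transcript of at least 1500 bases. The step ratio gave whole-number fragment ratios within 0.2% for 64.2% of them, against 8.41% at a shifted ratio. Fragments per gene used the median RefSeq-matched transcript length in GENCODE, without correction for fragment length, so they are rough. The procedure was tested on simulated data. A member of 1 gene list is not reported here. The genes, lists and tests were chosen with earlier results of these data known. Named genes were all 7 Ahr genes, and, from each other list, those at 2-fold and the largest changes, at most 5; some genes of known role were named beyond this after their values were seen. Python 3.11.15, pandas 2.3.3, SciPy 1.17.1 and matplotlib 3.10.9 were used. Alternatives were other pseudocounts, filters, scalings and fold calls, the authors' comparison table and all features.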

Additional observations from a re-analysis of the deposited data

How the results depend on the processing

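The change of every one of the 7 Ahr genes kept its sign under all alternatives run, though the sizes moved. That of Arnt all but vanished with equal summed FPKM. With a pseudocount of 0.1 FPKM the log2 changes were -1.49 for Ahrr, -1.60 for Cyp1a1 and -1.74 for Cyp1b1, so that 3 of the 7 were at least 2-fold lower. With a pseudocount of 5 FPKM they were -0.31, -0.61 and -0.43, Asb2 was at 0.25, and 0 of the 7 reached 2-fold. With the median ratio of well-expressed genes set to 1 the changes were -0.47 for Ahr and -0.60 for Tiparp. With equal summed FPKM they were -0.53 for Ahr, -0.65 for Tiparp and 0.00032 for Arnt, and the median of the 7 was -0.65. A filter of 3 FPKM left 1 gene of the 7 at 2-fold, since Cyp1b1 is then not kept. Over all genes, 405 were higher and 251 lower with a pseudocount of 0.1 FPKM, 101 and 39 with one of 5 FPKM, 767 and 360 at a 1.5-fold call, and 387 and 1051 when features without an Entrez identifier were included. In the main setting 241 were higher and 141 lower. The median of all genes, 0.11, was 0.0045 with the median ratio set to 1 and -0.048 with equal summed FPKM. Among other gene lists and their named genes, 334 of 429 recomputed values stayed within counting error or, for counts, within 1.5 times. In the family of bHLH-PAS factors 2 genes were at least 2-fold higher with a pseudocount of 0.1 FPKM, against 0 in the main setting. Among the receptor-linked T cell genes 4 were lower and 0 higher with a pseudocount of 5 FPKM. The depth ratio was 1.15 with steps taken under 0.2 or 0.5 FPKM, alternatives chosen after seeing the data, as was the use of the longest transcript for the intervals, which left all 7 intervals on the same side of 1. These intervals hold for the deposited scaling only. For Arnt the log2 change was 0.052 with the median ratio set to 1, so the place of its interval above 1 rests on that scaling. No paired analysis was possible because each condition had 1 library, so no replicate could be left out either. Depth limits the low genes most, with about 62 fragments behind the lowest value of Ahrr.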

Other observations

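The full table holds further features at the printed loci of the Ahr genes, which carry identifiers that the file does not explain. At the Ahr locus 1 of these stood at 5.42 FPKM with WT APCs and 4.00 FPKM with OX40L-TG APCs, another at 0.425 and 0.177 FPKM, and an assembled feature at 1.30 and 1.12 FPKM. At the Ahrr locus 1 stood at 0.555 and 0.396 FPKM. An assembled feature at the Asb2 locus was listed at 0 in both libraries. All 4 with a value were lower with OX40L-TG APCs, as were 69.5% of the 10833 features of the table that have a value and no Entrez identifier, so the direction is not particular to these loci.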
